A study of Mus musculus with 6 samples.

Results

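The Iroquois homeobox genes, Irx1 to Irx6, are the 6 members described here, out of 36047 genes whose RNA was sequenced in MLE-12 cells. MLE-12 is a mouse lung epithelial line, labelled wild type and immortalised by the large T antigen of a virus, although the labels name lung tissue as the source of the extracted RNA. The cells of 3 libraries received PBS and cells of 3 libraries received cigarette smoke extract (CSE), a solution of smoke constituents, at 5% and an optical density of 2.0. Treatment began at a culture density of 30% and cells were collected 24 hours later. Irx3 was selected on its measured log2 change, a large rise in CSE, so its values are a description with no test, while the other 5 genes belong by family alone. The question was whether the cluster neighbours of Irx3 rose with it.

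Iroquois genes encode transcription factors of the TALE class, which carry a homeodomain with an additional loop and work together with other TALE factors. In mice they lie in a pair of clusters. Irx1, Irx2 and Irx4 form the IrxA cluster and Irx3, Irx5 and Irx6 the IrxB cluster, and matching members of both clusters descend from a shared ancestral cluster. Several of them are active in the epithelium of the branching embryonic lung, and they are best known for patterning the heart, limb, retina and neural tube. Irx3 and Irx5 act together in the heart, where they shape conduction and repolarisation, and enhancers inside the neighbouring gene Fto contact the Irx3 promoter.

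On GRCm38, the build of GENCODE vM21, the IrxA cluster lies on chromosome 13 and spans 1312 kb. It holds Irx1 (71957921 to 71963723, minus strand), Irx2 (72628820 to 72634198, plus strand) and Irx4 (73260479 to 73269608, plus strand). The IrxB cluster lies on chromosome 8 and spans 882 kb. It holds Irx3 (91798525 to 91802067, minus strand), Irx5 (92357625 to 92376286, plus strand) and Irx6 (92674288 to 92680956, plus strand). Irx3 is separated from Irx5 by 556 kb and from the end of Fto by 130 kb.

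The members are most alike in the homeobox, the part of the gene that encodes the DNA-binding domain, and this matters for how reads are told apart. Shown next is the 90-base coding window in which the other 5 genes were on average most like Irx3, from the GENCODE vM21 transcripts, with capitals at the 78 positions that are identical in all 6 genes.
Irx1: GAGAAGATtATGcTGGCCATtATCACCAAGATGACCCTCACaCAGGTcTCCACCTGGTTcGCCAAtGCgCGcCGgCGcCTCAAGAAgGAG
Irx2: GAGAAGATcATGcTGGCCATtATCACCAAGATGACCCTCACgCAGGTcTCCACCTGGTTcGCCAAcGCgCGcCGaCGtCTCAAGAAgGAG
Irx3: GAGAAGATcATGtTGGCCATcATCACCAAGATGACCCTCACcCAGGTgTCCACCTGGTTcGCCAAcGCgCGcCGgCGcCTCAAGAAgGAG
Irx4: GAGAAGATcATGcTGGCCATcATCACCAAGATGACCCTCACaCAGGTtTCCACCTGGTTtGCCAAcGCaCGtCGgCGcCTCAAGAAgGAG
Irx5: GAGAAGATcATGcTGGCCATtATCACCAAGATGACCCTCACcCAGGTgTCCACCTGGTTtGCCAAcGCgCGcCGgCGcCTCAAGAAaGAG
Irx6: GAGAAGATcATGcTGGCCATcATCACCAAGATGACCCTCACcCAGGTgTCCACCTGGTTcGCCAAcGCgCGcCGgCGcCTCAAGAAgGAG
Irx6 matched Irx3 at 89 of the 90 positions and Irx5 matched it at 86, while Irx1, Irx2 and Irx4 each matched it at 84. The longest identical run between coding sequences was 88 bases for Irx3 and Irx6 and 50 bases for Irx3 and Irx5. Of all 31-base words of the reference transcript, 3.38% for Irx3, 2.60% for Irx5, 1.35% for Irx2 and 0.171% for Irx1 also occurred in transcripts of another gene.

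Of the 6 genes, 4 were expressed at measurable levels and passed the filter on low counts, namely Irx1, Irx2, Irx3 and Irx5. Irx4, best known from ventricular heart muscle, was listed at 0 in all 6 libraries, where 3 counts, the limit that a count of 0 allows, correspond to between 0.125 and 0.249 CPM (counts scaled to a common library size). Irx6, known from the retina, had 1 count in PBS replicate 1 and 0 in the other libraries (two-sided exact permutation p = 1 for CPM, where 3 against 3 libraries allow no p under 0.1). A difference in Irx4 or Irx6 was thus not detectable at this depth. Each cluster had its silent or nearly silent member at the same end, the third gene.

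**Figure D1:**
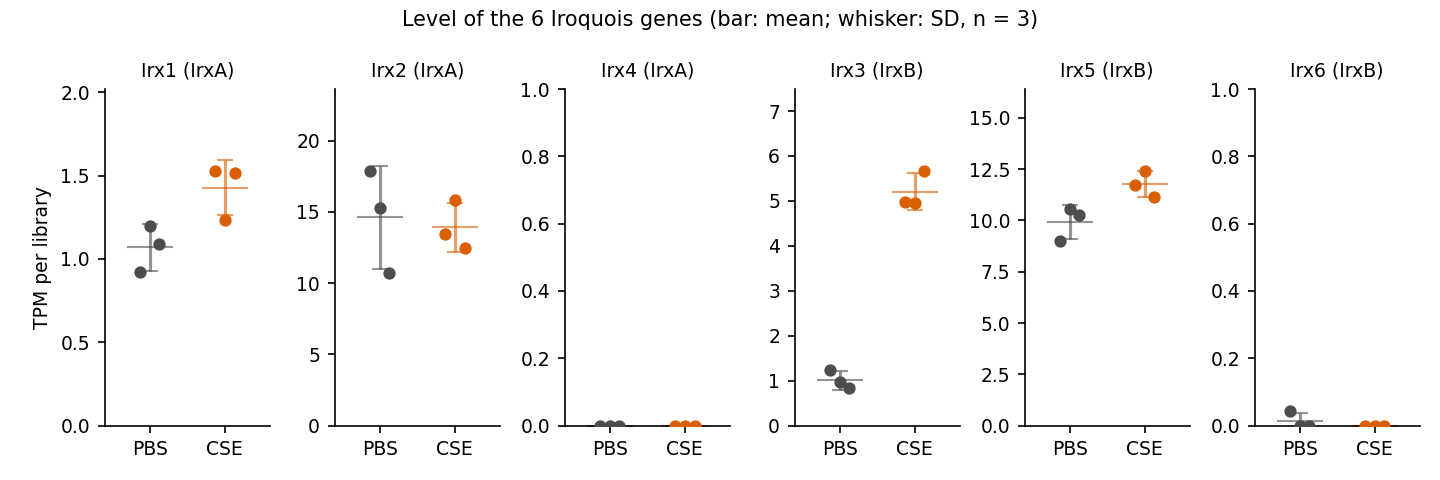
Level of each Iroquois gene in TPM (transcripts scaled to a common sum) on the vertical axis, with each gene on its own scale, against treatment. Points are libraries, bars are means and whiskers SD (n = 3). The 3 CSE libraries of Irx3 lie between 4.95 and 5.67 TPM, all above the PBS libraries, and Irx4 is at 0 throughout.

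Irx3 had 82 estimated counts in all 3 PBS libraries together and 470 in all 3 CSE libraries together. Its level was 1.24, 0.972 and 0.827 TPM in PBS replicates 1 to 3 and 4.98, 4.95 and 5.67 TPM in CSE replicates 1 to 3, or 2.12, 1.57 and 1.28 CPM against 8.21, 8.45 and 10.2 CPM. Each CSE library lay above each PBS library, as held in CPM for 15.1% of all tested genes. Irx3 was chosen for its rise, so this gap and the interval given next describe it and test nothing. The fitted log2 change was 2.46 ± 0.20 (SE), a 5.51-fold difference, and the depth-scaled ratio of summed counts was 5.58 with a 95% counting interval (conditional exact binomial) of 4.41 to 7.15. Irx3 took 3.48% to 4.28% of the summed TPM of the 6 genes in PBS and 14.4% to 18.4% in CSE. Among genes with a value above 0, its mean TPM exceeded 41.3% of genes in PBS and 54.3% in CSE, so it moved from the lower to the upper part of the range without becoming an abundant transcript.

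Irx5, the expressed cluster neighbour of Irx3, is a factor of cardiac repolarisation and of retinal bipolar cells. It had 180, 277 and 273 counts in PBS and 206, 449 and 293 in CSE. Per length this was 8.99, 10.6 and 10.2 TPM in PBS against 11.7, 12.4 and 11.1 TPM in CSE. Every CSE library was above every PBS library, in CPM as well, where the same held for 15.1% of the 13451 tested genes. The fitted log2 change was 0.33 ± 0.10, and it did not pass the threshold over all genes (quasi-likelihood test of edgeR, Benjamini-Hochberg adjusted p = 0.0578; unadjusted p = 0.00711). Summed counts scaled for depth gave a ratio of 1.26, with a counting interval from 1.15 to 1.39. This interval describes counting error alone and leaves out the scatter between libraries. Adjusted p-values over the 16 alternative settings lay between 0.0485 and 0.285, and the only setting under 0.05 was the fit without PBS replicate 2 (log2 change 0.37, edgeR adjusted p = 0.0485), in which 3.97% of all genes were called higher.

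In the IrxA cluster neither expressed gene moved beyond the spread between libraries in CPM. Irx2 had 12.4, 10.5 and 8.39 CPM in PBS and 9.86, 11.2 and 10.6 CPM in CSE, so the groups overlapped and the PBS libraries held both the highest and the lowest value. Its log2 change was 0.03 ± 0.15 (edgeR adjusted p = 0.911), with a counting interval on the ratio of 0.931 to 1.19. Irx1 had 17, 22 and 23 counts in PBS and 13, 31 and 24 in CSE, or 1.18 to 1.29 CPM against 1.08 to 1.45 CPM. Its log2 change was 0.08 ± 0.28 (edgeR adjusted p = 0.886), and its ratio of 1.07 had a wide counting interval of 0.746 to 1.53.

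Of the 3 tested members other than Irx3, 0 were called higher by edgeR, DESeq2 or limma-voom, and Irx5 alone had an unadjusted p under 0.05 in edgeR. Over all tested genes, edgeR called 4.32% higher, 7.12% lower and 11.4% in either direction, DESeq2 called 4.97% higher and limma-voom 4.52% higher, and 26.0% had an unadjusted p under 0.05. Since Irx3 was chosen for its change, no comparison of its change with those of its relatives was made.

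**Figure D2:**
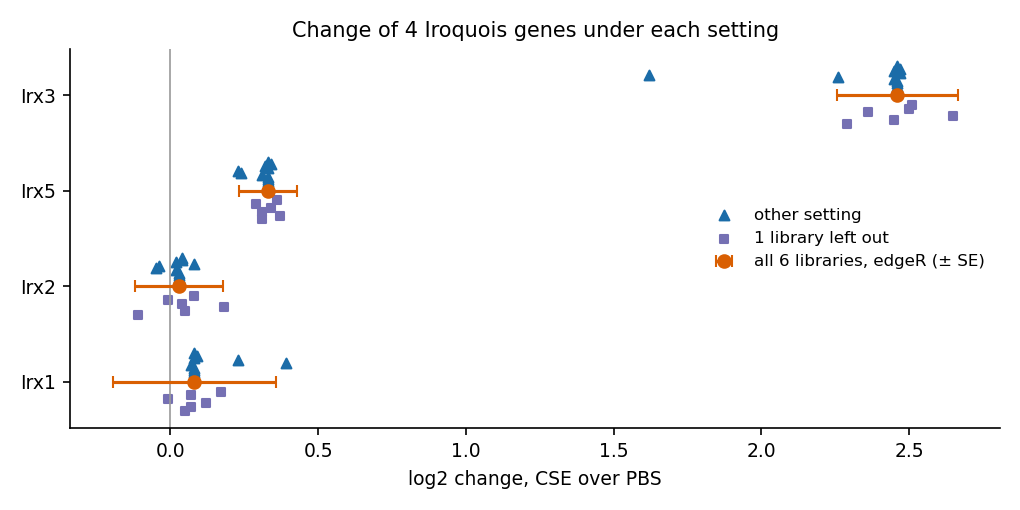
Log2 change of CSE over PBS (horizontal axis) for the 4 tested Iroquois genes. Orange points are the edgeR fit on all 6 libraries with SE, blue triangles the other settings and violet squares fits without 1 library. Irx3 lies between 1.62 and 2.65 throughout, Irx5 between 0.23 and 0.37, and the points of Irx1 and Irx2 fall on both sides of 0.

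The order of the levels per length depended on how transcripts were counted. In TPM summed per gene, the PBS means were 14.6 ± 3.64 for Irx2, 9.93 ± 0.83 for Irx5, 1.07 ± 0.14 for Irx1 and 1.01 ± 0.21 for Irx3 (SD, n = 3). Irx1 and Irx3 did not differ beyond their spread in PBS. In CSE the order was Irx2 (13.9 ± 1.72), Irx5 (11.8 ± 0.64), Irx3 (5.20 ± 0.41) and Irx1 (1.43 ± 0.17). The lowest Irx2 library in CSE (12.5 TPM) and the highest Irx5 library (12.4 TPM) nearly met. CPM per kb of the longest transcript instead put Irx5 first, at 5.57 ± 0.29 against 3.97 ± 0.76 for Irx2 in PBS and 6.99 ± 0.34 against 4.02 ± 0.25 in CSE.

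The reversal between Irx2 and Irx5 went with short transcripts. For Irx2, an annotated transcript of 559 bases held 14.9% of the counts but 48.2% of the TPM, since its counts are divided by a small length. Its TPM ranged from 3.34 to 11.5 over the PBS libraries. The 2625-base transcript of Irx2 alone reached 4.88 ± 0.71 TPM with PBS and 4.81 ± 0.09 TPM with CSE, under the 2450-base transcript of Irx5 at 9.86 ± 0.86 and 11.7 ± 0.62 TPM. Irx1 showed the same pattern: its TPM was 0.920 to 1.20 in PBS and 1.24 to 1.53 in CSE, while its CPM overlapped. The share of all genes with such a gap in TPM was not computed, so nothing is read from it. The 820-base transcript of Irx1 went from 3.28 to 15.2 summed counts, and its 2373-base transcript from 0.825 ± 0.064 to 0.652 ± 0.147 TPM.

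**Figure D3:**
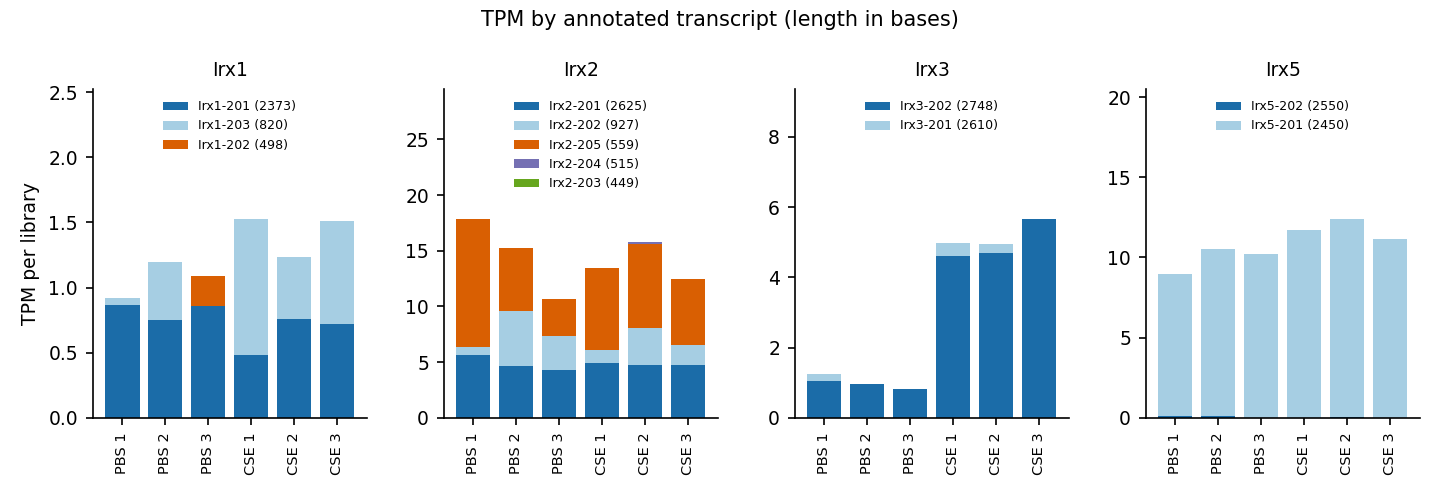
TPM in each library (vertical axis), stacked by annotated transcript with its length in bases. The short transcripts of Irx2 and Irx1 make up much of their TPM, whereas a single long transcript carries nearly all of Irx3 and of Irx5, that of Irx3 at 4.62 to 5.67 TPM in CSE.

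For Irx3 a single annotated transcript held most of the counts in both groups. A transcript of 2748 bases held 96.2% of the Irx3 counts and went from 0.953 ± 0.117 to 4.99 ± 0.591 TPM. A second one of 2610 bases had 3.99 counts summed over PBS and 17.0 over CSE, and was at 0 in 3 of the 6 libraries. The transcripts differ in their first exon, where the longer one starts 152 bases further upstream, and at the end of the second exon, where the shorter one keeps 14 bases that shift the reading frame. The junction is shown because few reads can separate these forms, with the 14 bases that the 2610-base form alone holds in capitals and 20 bases of the exon sequence on either side.
Irx3, 2610 bases: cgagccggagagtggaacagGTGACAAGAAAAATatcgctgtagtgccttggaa
Irx3, 2748 bases: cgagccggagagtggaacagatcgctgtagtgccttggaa
The second exon ends at position 91799659 in the 2610-base form and at 91799673 in the 2748-base form, on the minus strand of chromosome 8. The split between them is kallisto's estimate and was not tested.

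An antisense gene, Irx3os, overlaps Irx3 and was not analysed here. It runs on the plus strand from 91800415 to 91807539, and its exons share a stretch with the Irx3 exons that makes up 4.49% of their length. The whole stretch is coding in Irx3 and begins in the homeobox. It is given on the Irx3 strand, at chr8:91800415-91800538, because reads from this stretch could come from either gene unless strand was used.
Irx3 and Irx3os overlap: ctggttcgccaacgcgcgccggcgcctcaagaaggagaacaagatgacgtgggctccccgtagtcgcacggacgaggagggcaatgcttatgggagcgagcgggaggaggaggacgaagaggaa
Whether the libraries keep strand is not given in the sources used here, and the part of Irx3os in the Irx3 counts was not tested. Irx6 shares 152 exonic bases with the antisense gene Gm45505, and Irx1, Irx2, Irx4 and Irx5 overlap no other annotated gene.

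Genes around the clusters were examined next, taking all tested genes within 1 Mb of either end. Around IrxB, 29 of 76 annotated genes were analysed here, and 10 genes other than Irx genes were tested. Of these, 2 were called higher, 1 fell and 7 were not called, with a median log2 change of -0.08, against 11.4% called and a median of 0.01 over all tested genes. The 2 include Ces1d, whose call supports nothing, as described below. The closest tested gene to Irx3, Fto, which encodes an RNA demethylase, had 57.8, 55.3 and 59.4 TPM with PBS against 64.8, 59.7 and 58.5 TPM with CSE (log2 change 0.17 ± 0.07, edgeR adjusted p = 0.149). Rpgrip1l, a gene of the ciliary transition zone that starts beside Fto, was at 0.11 ± 0.13 (edgeR adjusted p = 0.630), and Aktip, Rbl2 and Chd9 lay between -0.12 and -0.07 with edgeR adjusted p-values of 0.356 to 0.531.

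On the far side of the cluster, Mmp2, a gelatinase gene beyond Irx6, went from 20.2 ± 1.67 to 14.5 ± 1.01 TPM and fell by 0.32 ± 0.08 (edgeR adjusted p = 0.0271). This call was lost in 6 of 16 alternative settings, up to an adjusted p = 0.124 without CSE replicate 2 and including each fit without 1 library except that without PBS replicate 2. The genes called higher were a pair of carboxylesterases, Ces1d and Ces1g, which start 1396 and 1535 kb from the Irx3 start. Ces1g had 16, 26 and 28 counts in PBS and 102, 170 and 113 in CSE, and rose by 2.44 ± 0.19 (edgeR adjusted p = 1.9e-05), in each CSE library above each PBS library. Ces1d had 4, 5 and 2 counts in PBS and 13, 19 and 17 in CSE and was called at 2.09 ± 0.46 (edgeR adjusted p = 0.0138). It passed the filter on low counts only through the CSE libraries, where it is high, so its call supports nothing. It missed the threshold without CSE replicate 3 (adjusted p = 0.0625) and without PBS replicate 3 (0.0740). Between 6.11% and 7.50% of the words of these esterase genes occur in other genes' transcripts, other Ces1 genes among them. Ces1f, which lies between them, was at -0.13 ± 0.43 (edgeR adjusted p = 0.881). Neither Fto nor Irx5, the tested genes on either side of Irx3, was called.

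**Figure D4:**
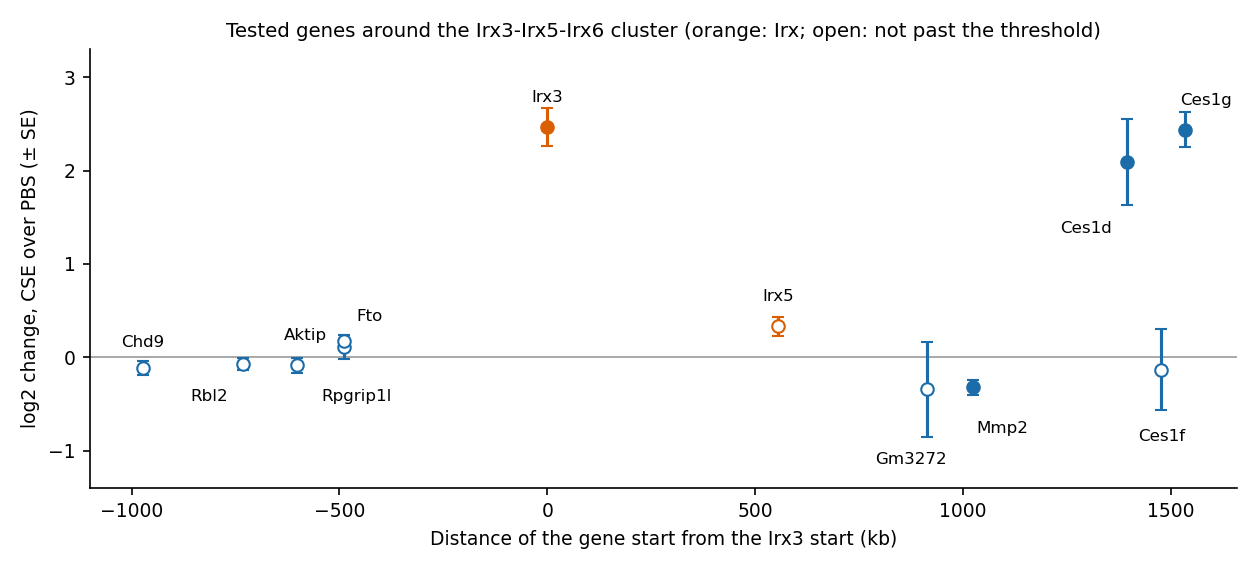
Log2 change of CSE over PBS with SE (vertical axis) for tested genes around the IrxB cluster, by distance of the gene start from the Irx3 start in kb. Orange points are Irx genes and open points did not pass the threshold. Genes on the Fto side lie near 0, and Ces1d and Ces1g are higher more than 1300 kb away.

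Around IrxA, 31 of 47 annotated genes were analysed here, and 12 genes other than Irx genes were tested. By edgeR 0 rose, 2 fell and 10 were not called, against 7.12% of all tested genes that fell, with a median log2 change of 0.08. Slc12a7, a potassium and chloride cotransporter gene, went from 79.2 ± 7.56 to 52.4 ± 3.55 TPM and fell by 0.47 ± 0.07 (edgeR adjusted p = 0.0012). Lpcat1, an acyltransferase of surfactant lipid synthesis, fell by 0.35 ± 0.08 (edgeR adjusted p = 0.016), a call lost in 3 settings, up to an adjusted p = 0.104 without CSE replicate 2. Mrpl36 (0.46 ± 0.16, edgeR adjusted p = 0.0883) and Ndufs6 (0.22 ± 0.16, edgeR adjusted p = 0.425), the coding genes closest to Irx4, were not called. Ahrr, the repressor of the aryl hydrocarbon receptor, stands at the far edge of this window at 0.33 ± 0.29 (edgeR adjusted p = 0.507). The remaining 7 were not called either and lay between -0.57 (Nkd2) and 0.14 (Clptm1l). Over both clusters 5 of 22 neighbours were called, where 11.4% of all tested genes were. Without PBS replicate 3 there were 2, where 7.06% of all tested genes were called. The 5 include Ces1d, which passed the filter on low counts only through the CSE libraries, so nothing is read from their number.

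Among other homeobox genes, 90 of 195 listed were tested. Of these, 2 were called higher, 6 fell and 82 were not called, so 8.89% were called against 11.4% of all genes, and their median log2 change was -0.07. Those that fell included Tshz2, a teashirt zinc finger gene (by 0.87 ± 0.09, edgeR adjusted p = 0.000144) and Hopx, an alveolar type 1 marker (by 0.68 ± 0.09, edgeR adjusted p = 0.000856). Further genes that were called, named after their values were seen, were the linked pair Dlx5 and Dlx6 (fell by 0.66 ± 0.10 and 0.62 ± 0.11), the tuft cell factor Pou2f3 (fell by 1.64 ± 0.28), Prrx2 (rose by 1.34 ± 0.20) and the intestinal factor Cdx2. For Cdx2, 8 counts under PBS stood against 52 under CSE, a log2 change of 2.62 ± 0.49. Like Ces1d it passed the filter only through the CSE libraries, so its call supports nothing, and it had no value in 4 of 16 alternative settings.

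**Figure D5:**
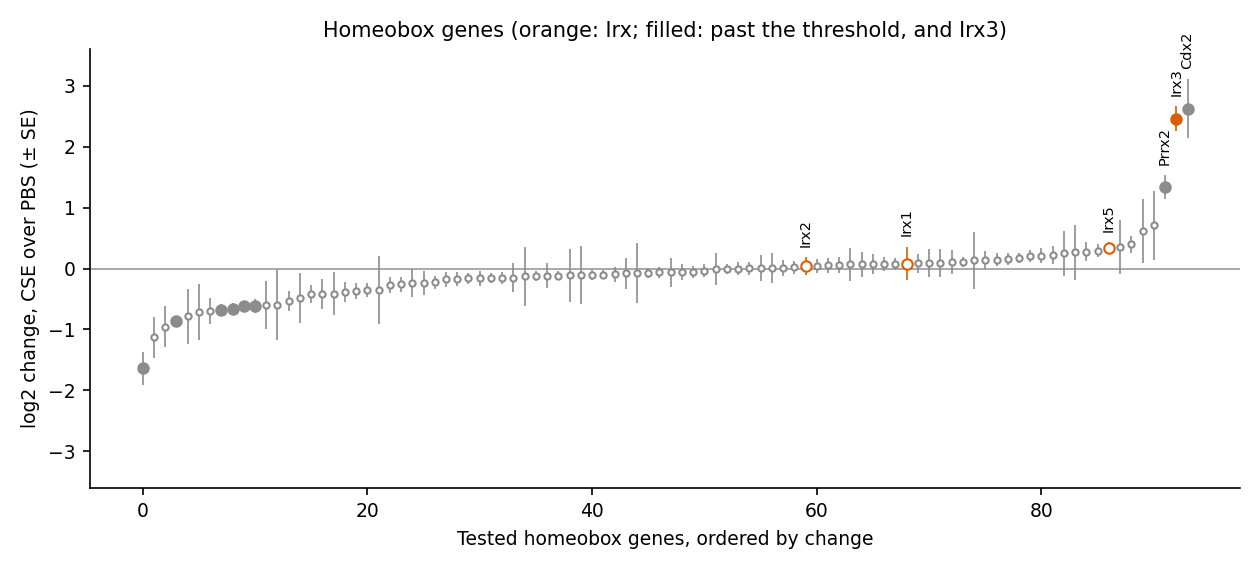
Log2 change of CSE over PBS with SE (vertical axis) for the 94 tested homeobox genes ordered by change, with names on Irx genes and on other genes that rose. Irx genes are orange, and filled points passed the threshold, with Irx3 filled as the gene chosen for its rise. Irx1, Irx2 and Irx5 lie in the middle and upper range, between 0.03 and 0.33.

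Of 12 tested partners and relatives in the TALE class, 0 were called higher by edgeR, and their median log2 change was -0.09. Tgif2, a repressor of TGF-beta signalling, was at -0.53 ± 0.17 (edgeR adjusted p = 0.0696) and Tgif1 at 0.29 ± 0.11 (edgeR adjusted p = 0.113). Pbx2, Pbx3 and Pknox1, each above 25 TPM in both groups, lay between -0.10 and -0.06.

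Signalling pathways that pattern Irx expression in embryos were read through short lists, to be set against the 4.32% of all tested genes that were called higher, 7.12% lower and 11.4% in either direction. In the retinoic acid list, 2 of 7 tested genes rose, the retinaldehyde reductase Dhrs3 by 1.29 ± 0.11, from 11.2 to 25.4 TPM (edgeR adjusted p = 3.04e-05), and the retinoic acid hydroxylase Cyp26b1 by 0.52 ± 0.09 (edgeR adjusted p = 0.00369), while Rara was at -0.22 ± 0.08 (edgeR adjusted p = 0.125). All 7 had a median log2 change of -0.09. In the hedgehog list 1 of 8 was called, a share near that of all genes: the coreceptor Cdon fell by 1.20 ± 0.08 (edgeR adjusted p = 6.98e-06). The feedback gene Ptch1 had 1216 counts in PBS and 1218 in CSE, Shh was at -0.32 ± 0.18 and Sufu at -0.07 ± 0.07, and the median was -0.03. In the Wnt feedback list 1 of 10 was called, again near the share of all genes: Apcdd1 fell by 1.04 ± 0.10 (edgeR adjusted p = 5.87e-05), with Znrf3 (-0.37 ± 0.12) and Lef1 (-0.68 ± 0.25) not called and a median of -0.38.

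In the BMP and TGF-beta list, 2 of 11 tested rose, 2 fell and 7 were not called, against 11.4% of all tested genes called. The BMP antagonist Nog fell by 1.19 ± 0.11, the ligand Bmp4 fell by 0.41 ± 0.08, Atoh8 rose by 0.57 ± 0.07 and Id2, a BMP-induced inhibitor of helix-loop-helix factors, rose by 0.95 ± 0.14. The median was -0.04. Of the cardiac genes linked to Irx factors, 5 of 10 were tested and 1 of these was called: the natriuretic peptide gene Nppb fell by 1.96 ± 0.25 (edgeR adjusted p = 0.000508). The connexin gene Gja1, a known Irx3 target in the heart, stood at 24.2 ± 2.30 TPM with PBS and 29.1 ± 1.47 TPM with CSE (log2 change 0.40 ± 0.12, edgeR adjusted p = 0.0516), and the list's median was 0.28. In the lung transcription factor list, 2 of 20 rose and 4 fell, led by Hopx, Id2 and Gata6 (fell by 0.41 ± 0.07), with a median of -0.11.

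Over the 6 libraries, the log2 CPM profile of Irx3 was most like that of Creg1 (Pearson r = 0.999), Fbxl4 (0.9967), Gstm1 (0.9965), Cdca7 (0.9965) and Mpp6 (0.9955), among 12388 genes with a mean of at least 1 CPM. These genes rose by 0.28 (Fbxl4) to 0.85 (Mpp6) on the log2 scale. All profiles share the same libraries and the same split into groups, and 6.15% of the genes reached an r of 0.9 or more with Irx3. Irx5 was among them (r = 0.911), while Irx1 (0.313) and Irx2 (0.253) were not. The profiles most like that of Irx5 were those of Ddx51 (0.9955), Gtf2h4 (0.9954), Mgat4b (0.9932), Padi2 (0.9909) and Pomk (0.9874).

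RefSeq promoter windows (GRCm38.p6, 250 bases before to 50 after the start) were at hand for Irx2, Irx3 and Irx4. They were searched on both strands for GCGTG, the core of the dioxin response element, and TGACNNNGC, the core of the antioxidant response element, which are found in 32.4% and 12.4% of all 32851 windows. Irx4 had 1 match to GCGTG, and Irx2 and Irx3 had 0 matches to either motif. The RefSeq window of Irx3 lies wholly after the annotated start of the 2748-base transcript that carried most counts.

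The libraries held 12093009 to 24050167 estimated counts. The aryl hydrocarbon receptor target Cyp1a1 had 1 or 2 counts in each PBS library and 724 to 1247 in the CSE libraries, and Nqo1 went from 54.3 ± 8.60 to 200 ± 0.478 TPM. In the list of such targets, 6 of 7 tested rose, against 4.32% of all tested genes, Tiparp by 2.40 ± 0.08 and Aldh3a1 by 2.84 ± 0.10. The list's median was 2.11, and Ahrr was not called (0.33 ± 0.29, edgeR adjusted p = 0.507). Correlations of log2 CPM across genes were 0.987 to 0.993 within groups and 0.981 to 0.987 between them. Nothing in the labels states that replicates were separate cultures, and p-values then reflect how far these libraries scatter, a scatter that may be technical.

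Markers of the labelled cell type were present in part. Of 9 epithelial markers, Krt19 (1005 TPM in PBS) and Krt8 (206 TPM) were abundant, Cdh1 (6.04 TPM) and Epcam (2.36 TPM) were low, and 3, Krt18 among them, were under 1 TPM in both groups. The alveolar type 1 genes Ager, Emp2 and Cav1 were abundant, and of 10 type 1 markers only Akap5 was under 1 TPM in both groups. Of 10 type 2 markers 4 were under 1 TPM in both groups, with Sftpa1 at 0. The highest type 2 markers in PBS were Lpcat1 (55.7 TPM), Abca3 (34.7 TPM) and Etv5 (14.5 TPM). Of 10 tested type 1 markers 6 fell, against 7.12% of all tested genes, led by Ager (by 1.23 ± 0.07), Hopx and Emp2 (by 0.55 ± 0.08), and their summed level was 1752 to 1837 TPM in PBS and 1148 to 1272 in CSE. Of 6 tested type 2 markers, 2 fell, Lpcat1 and Sftpc (by 1.57 ± 0.37), and Abca3 was at -0.10 ± 0.07. Sftpc had 55 counts in PBS and 19 in CSE. It passed the filter on low counts only through the PBS libraries, where it is high, so its call supports nothing. Of 6 tested general epithelial markers 5 fell, led by Krt19 (by 0.88 ± 0.09), Cldn3 (by 0.85 ± 0.12) and Cdh1 (by 0.89 ± 0.14), and of 2 tested airway markers Muc5b fell by 1.26 ± 0.19 and Trp63 was at 0.43 ± 0.37.

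Among markers of other lung cells, Dcn, the proteoglycan decorin, was abundant, at 954 TPM in PBS and 507 TPM in CSE. Col1a1 (14.7 TPM) and Wt1 (6.34 TPM) were above Cdh1 in PBS, and most of the rest were under 1 TPM. In the fibroblast list, 4 of 10 genes were tested, Col1a1 fell by 0.60 ± 0.07, Dcn fell by 0.83 ± 0.11 and Pdgfra rose by 0.84 ± 0.12. Wt1, at 0.03 ± 0.15, was not called. The list's summed level was 875 to 1132 TPM in PBS and 483 to 549 in CSE, nearly all of it Dcn, with Postn at 0 and 6 of 10 genes under 1 TPM in both groups. Endothelial markers summed to 2.58 to 3.43 TPM in PBS and 1.80 to 3.74 in CSE, with Cdh5 and Sox17 at 0, and 0 of 3 tested were called by edgeR (Pecam1 -0.85 ± 0.27, Vwf 1.07 ± 0.36, Tie1 -0.50 ± 0.45). Immune markers summed to 9.90 to 12.2 TPM in PBS and 8.05 to 11.3 in CSE, and Ptprc stayed under 1 TPM. Of 4 tested, Csf1r alone was called, where 11.4% of all tested genes were. It rose by 0.94 ± 0.21, with 125 counts in PBS and 253 in CSE, and part of its sequence is shared with Hmgxb3. Its TPM moved less, from 1.76 ± 0.26 to 2.00 ± 0.19. Cd14 was at -0.20 ± 0.20 and Cd68 at 0.18 ± 0.35. The part of any of these cells in the rise of Irx3 was not tested, and in bulk RNA a change in the share of cells that express Irx3 and a change in its RNA per cell cannot be told apart.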

How the data were processed

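RNA-seq of polyA RNA from 6 MLE-12 libraries (3 PBS, 3 CSE) was used, with groups from the sample titles. The authors deposited 1 table per library, with estimated counts and TPM for 118489 transcripts, per the file headers. TPM are estimated counts over effective length, scaled by the authors to 1 sum per library. GRCm38, DESeq2 1.40.2, FastQC 0.12.1, fastp 0.20.1 and kallisto 0.46.2 appear, without roles, in the submitters' processing notes. For the index and the strandedness, a value is not given in the sources.

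Transcripts were matched by identifier to GENCODE vM21 (116816, 98.6%), and 1673 without a match, with 0.638% to 0.664% of each library's total, were dropped. Values were added up per gene (36047 genes), and the summed estimated counts were rounded. Genes passing filterByExpr (minimum count 10, 13451 genes) were scaled by TMM and tested two-sided by quasi-likelihood in edgeR, with treatment as the only factor, Benjamini-Hochberg adjustment over all tested genes and a threshold of 0.05. SE is the log2 change over the square root of the F statistic. CPM use TMM-scaled library sizes. Counting intervals and limits for 0 counts (3 counts) describe counting error alone, because PCR copies were not told apart by molecular identifiers. Every pair of libraries differed beyond sampling noise (chi-square per gene of at least 5.61). The procedure was tested on simulated data.

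The members, lists, rules and settings were chosen with earlier results of these data known. Named genes were the 6 members, genes overlapping them, tested genes within 1 Mb of the clusters, the 3 members of smallest p in each list, the 5 profiles most like Irx3 and Irx5, and Cyp1a1 and Nqo1. The text leaves out some genes of this rule, and adds others as examples, chosen after their values were seen. A few results are not reported here. Words of 31 bases were compared over all transcripts of the files. The alternatives comprised DESeq2, limma-voom, scaling by RLE or by library size, no filter, a mean of at least 5 CPM, an effective length offset, limma on log2(TPM + 1) and log2(TPM + 0.1) with a mean of at least 1 TPM, the replicate number as a block, and each library left out in turn. Python 3.11.15 was used with scipy 1.17.1, pandas 2.3.3 and matplotlib 3.10.9, and R 4.3.3 with DESeq2 1.42.0, limma 3.58.1 and edgeR 4.0.16.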

Additional observations from a re-analysis of the deposited data

How the results depend on the processing

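Over 16 alternative settings the log2 change of Irx3 lay between 2.26 and 2.65, except for limma on log2(TPM + 1), where it was 1.62, as the added 1 is large beside its PBS level. Irx5 was higher in CSE in all 16 (0.23 to 0.37, and 0.29 to 0.37 with 1 library left out) and passed the threshold only without PBS replicate 2 (0.37), where 1 of the members was called higher against 0 otherwise. The direction of Irx2 turned with limma on log2(TPM + 0.1) (-0.05) and log2(TPM + 1) (-0.04), and with 1 library left out its change lay between -0.11 (without PBS replicate 3) and 0.18, being -0.01 without CSE replicate 2. Irx1 turned without CSE replicate 3 (-0.01 to 0.17 over the fits without 1 library). The cause was not tested.

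Of all tested genes 1539 were called. This count was 985 and 998 with limma on log2(TPM + 0.1) and log2(TPM + 1), and 837 to 1941 with 1 library left out. Neighbours of the clusters called were 5, Ces1d among them. Their number was 3 with a mean of at least 5 CPM, a setting that tests fewer genes, and 2 to 5 with 1 library left out. Other homeobox genes called higher were 2, but 1 with DESeq2, limma on either TPM scale and a mean of at least 5 CPM, where Cdx2 had no value, and 2 to 3 with 1 library left out. The labels do not state that replicate numbers pair the libraries. Same-numbered libraries deviated from their group means with correlations of -0.124, 0.00608 and -0.0594, which cannot settle whether cultures were paired. With the replicate block, 1022 genes were called and 0 of the members, with Irx5 at 0.33 (edgeR adjusted p = 0.122). Restricting Irx2 to its 2625-base transcript, chosen after seeing the data, gave 4.88 TPM in PBS. With about 60 counts per group, changes of Irx1 within 0.746 to 1.53 times cannot be resolved.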
